A study of Mus musculus with 12 samples.

Results

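The integrated stress response converges on phosphorylation of the translation factor eIF2. Each of 4 kinases senses a separate stress, and their shared action slows protein synthesis at large while the mRNA of ATF4 is translated more. ATF4 is a transcription factor that, with partners of the C/EBP family, turns on genes for amino acid supply, for feedback on its own signal and, under lasting stress, for cell death. In liver the response is known from amino acid shortage and from stress of the endoplasmic reticulum, and one of its products is the hormone FGF21. Because ATF4 is controlled in large part through translation, its own mRNA level need not follow its activity.

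The 10 genes described here are *Atf4*, *Atf3*, *Ddit3*, *Trib3*, *Asns*, *Chac1*, *Fgf21*, *Sesn2*, *Psat1* and *Phgdh*, known members of this response, taken by symbol from the 24537 genes of the RNA-Seq table. All 10 were found. Liver RNA was sequenced from 12 male C57Bl/6J mice, single-housed and 6 weeks old at the start. Con mice ate ad libitum, and mice under calorie restriction (CR) received 30% less, and 3 mice of each diet were taken at day 25 and 3 at day 30 of the regimen. The series asked how hepatic gene expression looked under CR before and after a slowing of hepatic protein synthesis. CR mice ate a fortified chow once a day at a fixed hour, according to the methods, so that amount of food, food composition and meal time cannot be told apart. Each group was a separate set of mice, and day 30 mice were also older.

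Levels are given as FPKM, which scales exon reads by exon length and library size. Whole reads could be recovered from the steps of low values, and depth was 15748774 to 23345734 reads per library. The liver identity of the samples was clear, with *Alb*, the plasma albumin gene, at 25401 to 51723 FPKM. Tests covered the 10593 genes that reached 1 FPKM in at least 3 libraries. They compared log2(FPKM + 1) in limma, so that fold changes are on that scale and understate changes of low genes. A gene was called at a Benjamini-Hochberg adjusted p under 0.1. Of the 10 members 7 entered the tests, and *Atf3*, *Psat1* and *Phgdh* were too low.

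ATF4 and its C/EBP partners are known to bind a composite element written here as TGATGNAA. The 8 letters were searched on both strands of the RefSeq promoters (GRCm38.p6, the mm10 build), from 250 bases before to 50 bases after each start. They occurred in 5 of the 10 members (*Atf3*, *Trib3*, *Asns*, *Chac1* and *Fgf21*) and in 3.97% of the 32851 promoters of the table (4.51% of 27025 genes). The first 4 of these in the order of the members are printed to show where a match lies. They read 5′ to 3′ on the strand of the gene, with the match in capitals, which reads as the reverse complement in *Atf3*, *Trib3* and *Chac1*.
*Atf3* (chr1:191183425-191183454, minus strand): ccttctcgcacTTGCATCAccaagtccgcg
*Trib3* (chr2:152344028-152344057, minus strand): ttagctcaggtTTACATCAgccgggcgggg
*Asns* (chr6:7693214-7693243, minus strand): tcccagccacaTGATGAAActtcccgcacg
*Chac1* (chr2:119351038-119351067, plus strand): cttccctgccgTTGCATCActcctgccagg

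The match began 110 bases before the RefSeq start in *Atf3*, 23 before in *Asns*, 193 before in *Chac1* and 139 before in *Fgf21*. In *Trib3* it began 14 bases after the start, so that 4 members held a match when only the bases before the start were read. By the bounds of the GENCODE genes, the match in *Trib3* lies before the start and those in *Atf3* and *Asns* lie after it. The cyclic AMP element TGACGTCA occurred in no member and in 1.79% of all promoters. The endoplasmic reticulum stress element ERSE, which is CCAAT and CCACG spaced by 9 bases, occurred in no member and in 0.119%. A match of letters is a description of the sequence and does not show that a factor was bound in these livers.

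Across the 12 mice the members covered a wide range of levels. *Atf4* was by far the most abundant at a mean of 54.0 FPKM, above 96.3% of all listed genes. It was followed by *Ddit3* at 9.24, *Trib3* at 5.76, *Sesn2* at 3.09 and *Asns* at 2.54 FPKM, and the ranges over mice of neighbours in this order overlapped from *Ddit3* on. *Chac1* averaged 1.49, *Fgf21* 0.980 and *Atf3* 0.476 FPKM. *Psat1* at 0.114 and *Phgdh* at 0.0261 FPKM were close to the limit of detection.

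**Figure D1:**
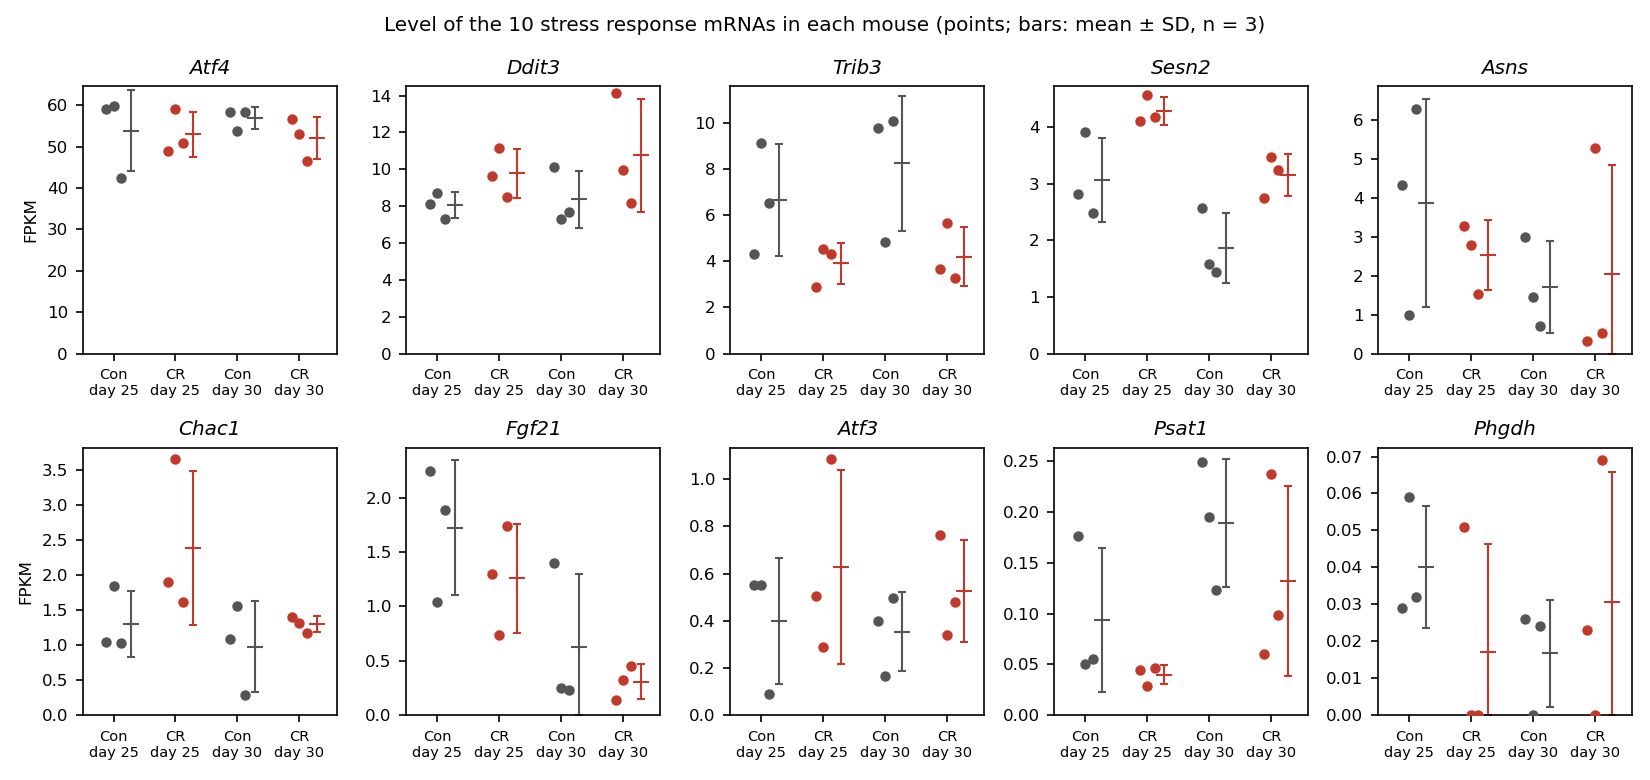
FPKM of each member (panels, axes from 0) in the 3 mice of each group. Points are mice, and the bar beside them is the mean ± SD, cut off at 0. Con is grey and CR red. The CR mice lay above the Con mice at both days for *Sesn2*, and for *Asns* single mice ranged from 0.314 to 6.30 FPKM.

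Over both days, CR changed 3 of the 7 tested members: *Sesn2* and *Ddit3* rose and *Trib3* fell. The same rule called 40.6% of all tested genes, so the share among the members was near that of the liver transcriptome as a whole. *Atf4* itself did not pass the test. The median log2 fold change was -0.07 for the 7 tested members and -0.05 for all tested genes. No member was called with a log2 fold change of 1 or more in either direction, a limit that 1.66% of all genes passed over both days.

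At the single days, no member was called at day 25, where 14.9% of all genes were, and 2 of 7 were called at day 30, where 24.7% of all genes were. At day 25, 2 of 7 members had an unadjusted p under 0.05, where 24.87% of all genes did. There limma on the recovered reads (voom) called 0 members and 1704 of the 10593 genes. The called members at day 30 were *Sesn2*, higher under CR, and *Trib3*, lower under CR. With the fold limit added, 0 members were called at either day, against 1.48% of all genes at day 25 and 2.21% at day 30. A difference in the CR effect between the days was not detectable for any member with 3 mice per group. Its intervals were wide, from -1.60 to 1.95 on the log2 scale for *Asns* and from -1.04 to 0.52 for *Chac1*. The test of that difference called 0 of 7 members, also 0 with voom and 0 at an unadjusted p under 0.05, and 0.00944% of all genes. When mice of the same replicate number were treated as a block, *Chac1* passed the test at day 25 (log2 fold change 0.53, adjusted p = 0.0738), in a fit that called 20.3% of all genes.

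**Figure D2:**
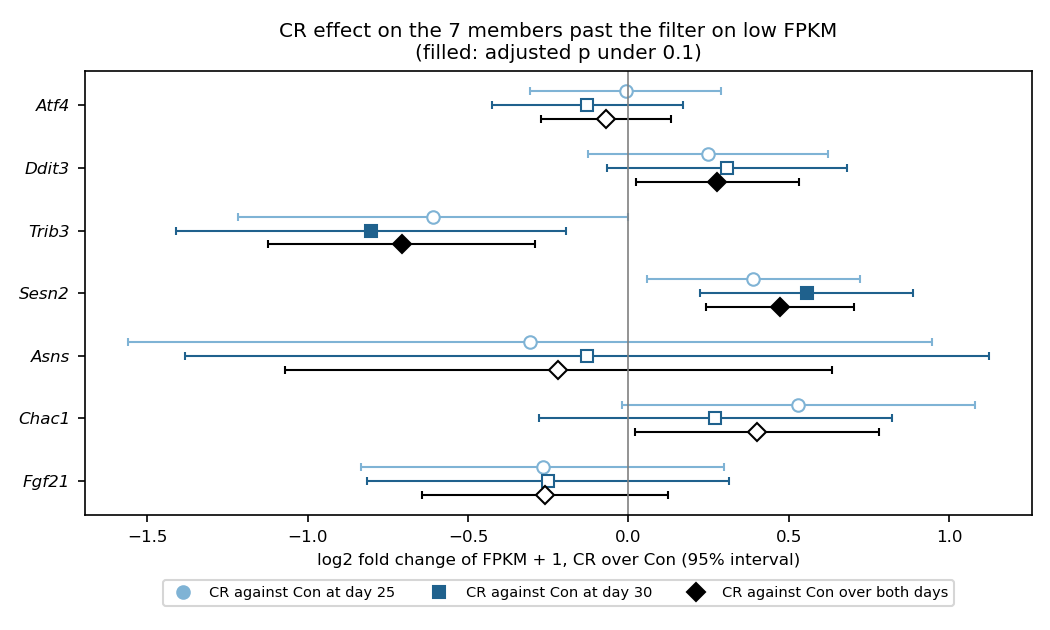
Log2 fold change of FPKM + 1, CR over Con, for the 7 tested members at day 25 (circles), at day 30 (squares) and over both days (diamonds), with 95% intervals. Filled symbols passed the test. *Sesn2* lies at 0.39, 0.56 and 0.47 and *Trib3* at -0.61, -0.80 and -0.71, while the intervals of *Asns* reach from below -1 to above 0.6 in each comparison.

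*Sesn2* encodes sestrin 2, a stress-induced protein that restrains the growth kinase mTORC1 when leucine is scarce. At day 25, the Con mice had 2.82, 3.91 and 2.49 FPKM and the CR mice 4.11, 4.57 and 4.18 FPKM. At day 30, the Con mice had 2.57, 1.58 and 1.44 FPKM and the CR mice 2.76, 3.48 and 3.24 FPKM. Every CR mouse was above every Con mouse of its day, which was the case for no other member at either day. A complete separation in either direction was seen for 28.2% of all tested genes at day 25 and for 36.4% at day 30. The log2 fold change was 0.56 ± 0.15 (SE) at day 30 (adjusted p = 0.0283) and 0.47 ± 0.11 over both days (adjusted p = 0.00529), a 1.39-fold higher FPKM + 1 with a 95% interval of 1.18 to 1.63. At day 25 it was 0.39 ± 0.15 and did not pass (adjusted p = 0.137). It passed at day 25 without Con replicate 2 of day 25 (0.0626) or Con replicate 1 of day 30 (0.0806). It also passed at day 25 with median-ratio scaling (0.0684) or quantile normalization (0.0682). At day 30 *Sesn2* did not pass without Con replicate 3 of that day (0.102).

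*Sesn2* was also lower at day 30 than at day 25 within each diet, by 0.35 ± 0.15 in CR and 0.51 ± 0.15 in Con on the log2 scale, but neither difference passed the test (adjusted p = 0.541 and 0.500). The means were 3.07 ± 0.744 FPKM at day 25 and 1.86 ± 0.614 FPKM at day 30 in Con mice (SD, n = 3), and 4.28 ± 0.247 and 3.16 ± 0.369 FPKM in CR mice.

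*Trib3* encodes a pseudokinase that ATF4 induces and that binds back to ATF4 and to the kinase AKT. At day 25, the Con mice had 4.30, 9.15 and 6.55 FPKM and the CR mice 2.88, 4.53 and 4.33 FPKM. At day 30, the Con mice had 9.81, 4.86 and 10.1 FPKM and the CR mice 3.67, 5.65 and 3.27 FPKM. In each day 1 Con mouse was as low as the CR mice and the others were above all of them. *Trib3* thus moved against *Sesn2* and *Ddit3*: it fell by 0.80 ± 0.28 on the log2 scale at day 30 (adjusted p = 0.0694) and by 0.71 ± 0.19 over both days (adjusted p = 0.0147), to a 0.613-fold FPKM + 1 with a 95% interval of 0.459 to 0.818. At day 25 the log2 fold change was -0.61 ± 0.28 (adjusted p = 0.200). The call at day 30 was lost without Con replicate 1 (0.190), Con replicate 3 (0.206), CR replicate 1 (0.191) or CR replicate 3 (0.177) of that day.

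Of the transcription factor genes tested, *Ddit3* was called and *Atf4* was not. *Atf4* had 59.2, 59.8 and 42.5 FPKM in Con mice and 49.0, 59.2 and 51.0 FPKM in CR mice at day 25. At day 30 it had 58.5, 53.9 and 58.4 FPKM in Con mice and 56.8, 53.0 and 46.6 FPKM in CR mice. The groups overlapped at both days, and the highest mouse had 1.41 times the level of the lowest. The log2 fold change over both days was -0.07 ± 0.09 (adjusted p = 0.607), and its 95% interval allows a fold of 0.829 to 1.10. With median-ratio scaling of the libraries the sign of this small value turned.

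*Ddit3* encodes CHOP, a C/EBP-like factor that acts late in the response. At day 25, it had 8.10, 8.71 and 7.33 FPKM in Con mice and 9.63, 11.2 and 8.51 FPKM in CR mice. At day 30, it had 10.1, 7.28 and 7.70 FPKM in Con mice and 14.2, 9.93 and 8.17 FPKM in CR mice. The diets overlapped at both days, and the highest value belonged to CR replicate 1 of day 30. Over both days *Ddit3* rose by 0.28 ± 0.12 on the log2 scale (adjusted p = 0.0882), and at the single days it did not pass (adjusted p = 0.410 at day 25 and 0.243 at day 30). The call was thin: it was lost in 8 of 12 fits that left out 1 mouse, namely Con replicates 1 and 3 and CR replicates 1 and 2 of day 25, and Con replicates 2 and 3 and CR replicates 1 and 2 of day 30, with adjusted p up to 0.184. The call over both days was also lost with voom (0.122), without the filter (0.147) and with a looser filter of 0.1 FPKM (0.106). At day 30 *Ddit3* passed without CR replicate 3 of that day (0.0905). The exons of *Ddit3* overlap those of *Mars* and *Gm4189* on the opposite strand, and whether the counting used strand is not given in the sources used here. *Mars*, a methionyl-tRNA synthetase, averaged 16.3 FPKM in Con and 16.7 in CR mice at day 25 and 16.7 and 15.2 FPKM at day 30, with a log2 fold change over both days of -0.05 ± 0.08 (adjusted p = 0.687).

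*Atf3* encodes a factor that is scarce in resting liver and induced by many stresses. It had 0.552, 0.552 and 0.09 FPKM in Con mice and 0.503, 0.290 and 1.09 FPKM in CR mice at day 25. At day 30, Con mice had 0.397, 0.167 and 0.495 FPKM and CR mice 0.762, 0.339 and 0.478 FPKM. The diets overlapped at both days. These values rest on 3 to 43 reads per library, and a 2-sided exact permutation test within days gave p = 0.23 (400 splits, smallest possible p 0.005), 1 of 3 such tests for members below the filter.

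*Chac1* encodes an enzyme that breaks down glutathione. At day 25, it had 1.04, 1.84 and 1.02 FPKM in Con mice and 1.90, 3.65 and 1.62 FPKM in CR mice. At day 30, Con mice had 1.09, 1.56 and 0.283 FPKM and CR mice 1.40, 1.31 and 1.18 FPKM. At day 25, 1 Con mouse lay within the CR range, and at day 30 the Con mice lay on both sides of the CR mice. The log2 fold change was 0.53 ± 0.25 at day 25 (adjusted p = 0.218), 0.27 ± 0.25 at day 30 (adjusted p = 0.486) and 0.40 ± 0.18 over both days. The last stood right at the limit (adjusted p = 0.10) and passed in 10 of 21 alternatives, among them without Con replicate 2 of day 25 (0.0825), CR replicate 3 of day 25 (0.0879), Con replicate 1 of day 30 (0.0980) or Con replicate 2 of day 30 (0.0388).

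*Asns* encodes asparagine synthetase, the enzyme that makes asparagine from aspartate and glutamine and a widely used readout of ATF4. At day 25, the Con mice had 4.35, 0.996 and 6.30 FPKM and the CR mice 3.28, 2.79 and 1.53 FPKM. At day 30, the Con mice had 3.01, 1.45 and 0.696 FPKM and the CR mice 0.314, 5.30 and 0.537 FPKM. The diets overlapped at both days because mice within a group differed so widely. The highest mouse had 20.1 times the level of the lowest, and within the CR group of day 30 a single mouse stood far above the other two. The log2 fold change over both days was -0.22 ± 0.40 (adjusted p = 0.704), and its 95% interval runs from a 0.476-fold to a 1.55-fold FPKM + 1.

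Counting error was small beside these differences. The lowest *Asns* value, in CR replicate 1 of day 30, rested on 14 reads (95% Poisson interval 0.172 to 0.527 FPKM). The highest, in Con replicate 3 of day 25, rested on 203 reads (5.46 to 7.22 FPKM). Such intervals cover counting error only. The SD of log2(FPKM + 1) within groups was 0.873 for *Asns*, above 99.7% of all tested genes and above 99.4% of the 500 genes nearest to it in level. The median of all tested genes was 0.152.

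**Figure D3:**
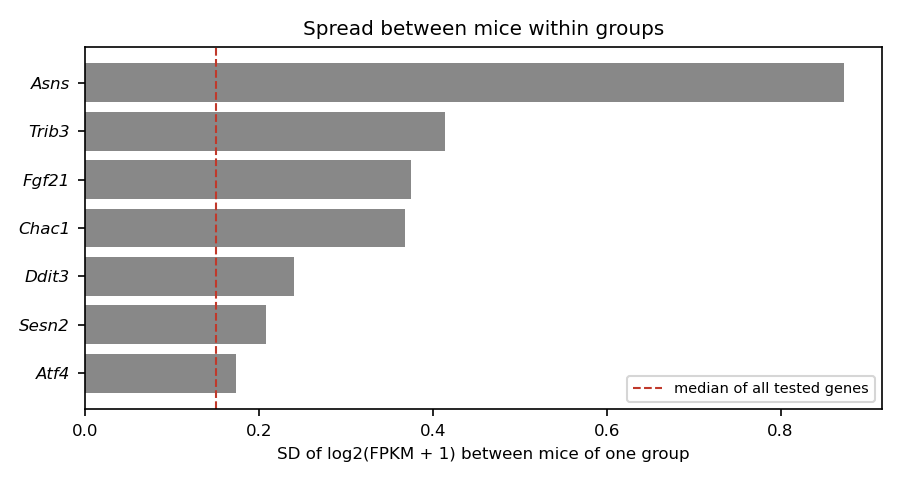
SD of log2(FPKM + 1) between mice within the 4 groups (bars, from 0) for the 7 tested members, with the median of all tested genes as a dashed line at 0.152. *Asns* stands apart at 0.873, and *Atf4*, at 0.174, lies nearest to the median.

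*Trib3* (0.414), *Fgf21* (0.376) and *Chac1* (0.368) also varied between mice of a group more than 95.2% or more of tested genes. Against the 500 genes nearest in level, *Fgf21* exceeded only 81.6%, *Chac1* 94.4% and *Trib3* 97.0%. *Ddit3* (0.241) and *Sesn2* (0.209) were closer to the median. The members did not share 1 extreme mouse. Con replicate 3 of day 25 had the highest *Asns* and the lowest *Atf4* and *Atf3*. CR replicate 1 of day 30 had the highest *Ddit3* and the lowest *Asns* and *Fgf21*, and CR replicate 2 of day 25 had the highest *Chac1* and *Sesn2*.

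*Phgdh* and *Psat1* encode the first enzymes of serine synthesis, which adult liver is known to express weakly. *Phgdh* had 0 to 3 reads per library, and in 4 libraries it had 0 reads, a count that allows up to 3. *Psat1* had 1 to 11 reads. For *Psat1*, the Con mice had 0.176, 0.05 and 0.055 FPKM and the CR mice 0.044, 0.029 and 0.046 FPKM at day 25. At day 30, the Con mice had 0.249, 0.195 and 0.123 FPKM and the CR mice 0.06, 0.238 and 0.099 FPKM. The CR mice lay below the Con mice at day 25 but not at day 30, and 28.2% of all tested genes were separate at day 25. The day 25 values rest on 7, 2 and 2 reads in the Con mice and 2, 1 and 2 in the CR mice. Where mice of both diets had 2 reads, their FPKM differed only through library depth. The exact permutation test within days gave p = 0.13 for *Psat1* and 0.805 for *Phgdh*.

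*Fgf21* encodes the hormone FGF21, which the liver secretes under amino acid shortage and fasting, through ATF4 and the fatty acid receptor PPARα. At day 25, the Con mice had 2.25, 1.04 and 1.89 FPKM and the CR mice 1.30, 0.741 and 1.74 FPKM. At day 30, the Con mice had 1.40, 0.249 and 0.235 FPKM and the CR mice 0.137, 0.327 and 0.455 FPKM. The diets overlapped at both days, with a log2 fold change over both days of -0.26 ± 0.18 (adjusted p = 0.284).

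A larger difference in *Fgf21* was seen between the days. In CR mice every value of day 30 was below every value of day 25, with a log2 fold change of -0.77 ± 0.26 (adjusted p = 0.384). How many of all genes were separate between the days in this way was not counted. In Con mice the log2 fold change was -0.79 ± 0.26 (adjusted p = 0.556), with 1 mouse of day 30 inside the range of day 25. Neither passed the test, in comparisons that called 0.321% of all genes in CR mice and 0.0% in Con mice. The values of day 30 rest on 3 to 27 reads per library. In each diet 2 of 7 members, *Fgf21* and *Sesn2*, had an unadjusted p under 0.05 between days, where 8.66% of all genes did in CR and 7.22% in Con mice, and voom called 0 members in either.

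The counts in the lists that follow stand against all 10593 tested genes, of which 14.5% rose and 26.1% fell over both days. With median-ratio scaling the split was 21.0% and 18.8%.

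Upstream of ATF4, the kinases that phosphorylate eIF2 were all expressed, and 1 of the 4 changed. *Eif2ak2*, which encodes PKR, the kinase that senses double-stranded RNA, averaged 4.50 FPKM in Con and 2.90 in CR mice at day 25, and 5.11 and 2.76 FPKM at day 30. It fell by 0.60 ± 0.09 on the log2 scale over both days (adjusted p = 0.000528). *Eif2ak4*, the amino acid sensor GCN2, had a log2 fold change of -0.01 ± 0.06 (adjusted p = 0.961), and *Eif2ak3*, the endoplasmic reticulum kinase PERK, of 0.10 ± 0.07 (adjusted p = 0.282). *Eif2ak1*, the heme-regulated kinase, had a log2 fold change of -0.14 ± 0.07 (adjusted p = 0.161). Among the 13 tested genes for kinases, their partners, phosphatase subunits and eIF2B, 1 rose and 2 fell, fewer calls than the 40.6% of all genes would give. The others called were *Gcn1l1*, the partner of GCN2, which fell by 0.32 ± 0.09, and *Ppp1r15b*, which targets a phosphatase to eIF2 and rose by 0.23 ± 0.09 (adjusted p = 0.0689). *Ppp1r15b* was no longer called in 7 of the 12 fits that left out 1 mouse.

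The other genes known as ATF4 targets went in both directions. Of 16 amino acid enzymes and carriers 8 were tested, and over both days 3 rose and 1 fell (median log2 fold change 0.16, against -0.05 for all tested genes). The 3 that rose were carriers or a carrier subunit. *Slc6a9*, a glycine transporter, rose by 0.59 ± 0.16 and *Slc38a2*, a carrier of small neutral amino acids, by 0.50 ± 0.11. *Slc3a2*, the heavy chain of several amino acid exchangers, rose by 0.21 ± 0.07. *Cbs*, an enzyme that turns homocysteine into cystathionine, fell by 0.72 ± 0.08 (adjusted p = 4.93e-05), from means of 141 and 128 FPKM in Con to 79.5 and 82.4 FPKM in CR mice at the 2 days.

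Of 13 genes for tRNA charging and export, 0 rose and 5 fell over both days (median -0.11), a share of calls near the 40.6% of all genes. The falls of largest size were in *Lars*, the leucyl-tRNA synthetase, by 0.43 ± 0.07, *Tars*, the threonyl-tRNA synthetase, by 0.36 ± 0.08, *Aars*, the alanyl-tRNA synthetase, by 0.22 ± 0.08, and *Xpot*, which exports tRNA from the nucleus, by 0.21 ± 0.06. This count moved with the scaling, to 2 with median-ratio scaling and 3 with quantile normalization. It was also 3 without Con replicate 1, Con replicate 2 or CR replicate 1 of day 30. In this list 5 of the 8 genes with a promoter in the table held TGATGNAA and in the list of amino acid enzymes and carriers 3 of 13 did.

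Of 15 further stress genes under ATF4, 14 were tested, and over both days 6 rose and 2 fell (median 0.23). *Ddit4*, which encodes the mTORC1 inhibitor REDD1, rose by 2.26 ± 0.27 (adjusted p = 6.96e-05), from means of 4.37 and 2.05 FPKM in Con to 27.3 and 13.8 FPKM in CR mice at day 25 and day 30. The CR mice of day 25 had 12.7, 19.8 and 49.4 FPKM, and their mean was 16.2 FPKM without CR replicate 3. Leaving out 1 mouse gave log2 fold changes of 2.03 to 2.45, all called. *Herpud1*, a component of endoplasmic reticulum protein disposal, rose by 0.86 ± 0.11, and *Cebpb*, which encodes a C/EBP partner of ATF4, rose by 0.74 ± 0.11. *Atf5*, the closest relative of *Atf4* and itself an ATF4 target, fell by 1.17 ± 0.15 (adjusted p = 0.000148), from means of 147 and 100.5 FPKM to 60.4 and 45.0 FPKM.

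**Figure D4:**
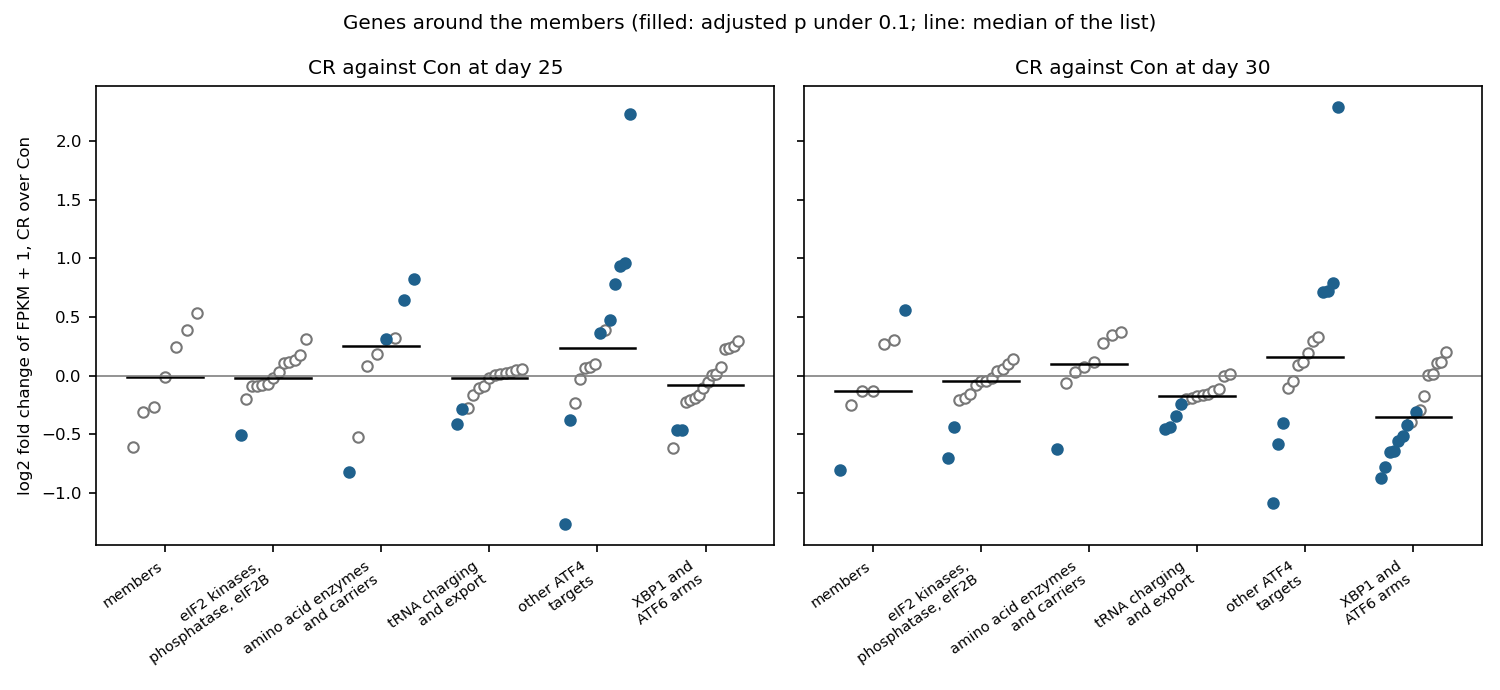
Log2 fold change of FPKM + 1, CR over Con, for each tested member and each tested gene of 5 related lists at day 25 and day 30. Points are genes (filled where called) and lines are list medians. The median of the XBP1 and ATF6 arms lies at -0.35 at day 30 and at -0.08 at day 25, and *Ddit4* is the single gene above 2.

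The other arms of the unfolded protein response, which run through XBP1 and ATF6 and raise chaperones and disposal genes, held more falls than rises under CR, as did all tested genes. Of 16 tested genes, 0 rose and 2 fell at day 25 (median -0.08), 0 rose and 8 fell at day 30 (median -0.35), and 1 rose and 9 fell over both days (median -0.21). Of all tested genes, 5.6% rose and 9.34% fell at day 25 and 8.33% rose and 16.4% fell at day 30, or 12.5% and 11.7% at day 30 with median-ratio scaling, under which 1 gene of the list rose and 7 fell. The test of the difference between days called 0 of the 16. From day 25 to day 30 the list median was 0.27 in Con mice and 0.05 in CR mice, with 0 of the 16 called in either diet. *Sdf2l1*, a co-chaperone, fell by 0.75 ± 0.19 over both days, *Pdia4*, a protein disulfide isomerase, by 0.56 ± 0.08, *Hyou1*, a chaperone of the HSP70 family, by 0.49 ± 0.12, and *Calr*, the lectin chaperone calreticulin, by 0.43 ± 0.11. At day 30 the number that fell was 5 without Con replicate 2 or CR replicate 1 of that day. TGATGNAA occurred in 0 of the 13 genes of this list with a promoter, near the 4.51% of all genes. It also occurred in 0 of 10 genes of the eIF2 list and 0 of 10 of the PPARα list described below. Among the further stress genes under ATF4, 3 of 13 held it.

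Genes around FGF21 gave no common direction. Of 16 tested genes for PPARα and its fasting targets, 4 rose and 2 fell over both days (median 0.06). *Pdk4*, a kinase that restrains glucose oxidation, rose by 0.78 ± 0.21 and *Angptl4*, an inhibitor of lipoprotein lipase, by 0.62 ± 0.13. The *Pdk4* mean of CR mice at day 25 was 2.37 FPKM, or 1.46 FPKM without CR replicate 3, and *Pdk4* was not called at that day. *Plin2*, a lipid droplet coat protein, fell by 0.85 ± 0.10 and *Acot1*, an acyl-CoA thioesterase, rose by 0.53 ± 0.16. The number that fell was 4 without Con replicate 1 of day 25 or Con replicate 1 of day 30. Of 5 FGF21 receptor genes, all tested, 2 fell and 0 rose, which is again near the share called among all genes. They were *Klb*, the co-receptor β-Klotho, which fell by 0.41 ± 0.08, and *Fgfr1*, which fell by 0.28 ± 0.08.

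Markers of other liver cells moved with the diet beside these results. At day 25, 5 of 6 Kupffer cell and macrophage markers fell, with a summed level of 49.3 to 82.8 FPKM in Con and 30.5 to 36.9 FPKM in CR mice, and 0 of 6 were called at day 30. The test of the difference between days called 0 of 6, and over both days 4 of 6 fell. The count at day 25 was 2 without Con replicate 2, CR replicate 1 or CR replicate 3 of that day. Of 4 tested stellate cell markers 3 rose over both days, with sums of 48.9 to 56.5 FPKM in Con and 59.6 to 62.1 FPKM in CR mice at day 25 and 44.3 to 54.0 and 61.6 to 75.8 FPKM at day 30. Of 5 endothelial markers 2 rose, while cholangiocyte markers gave 0 calls among 2 tested. None of the 5 blood leukocyte markers passed the filter on low values, and their sums were at most 2.79 FPKM. At day 25 these sums were 1.55 to 1.71 FPKM in Con and 0.518 to 0.922 FPKM in CR mice, without overlap, and at day 30 the diets overlapped. Of 5 adipocyte and pancreas markers 1 was tested and not called, and *Ins2*, the insulin gene, was listed at 0 in every library. Of 8 hepatocyte markers 2 rose and 2 fell over both days. The part of these cells in the results was not tested, and in whole tissue fewer cells of a type and less RNA per cell cannot be told apart.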

How the data were processed

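Liver RNA was sequenced as paired-end reads on a single lane. The authors mapped reads to mm10 with BWA and deposited FPKM values, which per the file headers were made with HOMER from reads on exons of 1 RefSeq transcript per gene. Submitters' notes also name CASAVA 1.8.2 and FastQC. FPKM are not counts, so the count model of the study was replaced by limma 3.58.1 (R 4.3.3; lmFit, eBayes with trend) on log2(FPKM + 1), in 1 model of the 4 groups of 3 mice, with day as covariate over both days. Tests are 2-sided. Whole reads were recovered from low FPKM steps (100% of 1500 low values per library whole) and used with voom as an alternative. Other alternatives were a pseudocount of 0.1, no filter or a filter of 0.1 FPKM, median-ratio, TPM or quantile scaling, no trend, only the groups compared, the replicate block, each mouse left out, an adjusted p under 0.05 and the thresholds of the study (adjusted p under 0.1 and a log2 fold change of 1). The model was tested on simulated data. Python 3.11.15 was used with matplotlib 3.10.9, numpy 2.4.6 and pandas 2.3.3.

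Members and lists were chosen with earlier results of these data known. Every member and eIF2 kinase is named, and of each other list up to 4 genes called over both days, by size of change. Con mice of day 30 could not be tied to single labels, so their numbers follow the column names. At day 25, deviations of same-numbered mice from their group means correlated by 0.106 to 0.368 across genes. The mean for other numbers was -0.131. It is no separate evidence, because deviations within a group cancel out and so tie it to the same-number mean. Nothing states that a number marks a shared batch. Promoters came from RefSeq and were found for all 10 members.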

Additional observations from a re-analysis of the deposited data

How the results depend on the processing

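No member changed sign of a called value under any alternative. At day 25, 1 member was called, in place of 0, with median-ratio scaling or quantile normalization (*Sesn2*) or the replicate block (*Chac1*). With 1 mouse left out, 0 to 1 were called at that day. At day 30, 1 member was called, in place of 2, without the filter and at an adjusted p under 0.05, 0 with the thresholds of the study, and 0 to 2 without 1 mouse. Over both days, 0 were called with the thresholds of the study in place of 3. The calls of *Sesn2* and *Trib3* over both days held in all 21 alternatives, *Ddit3* in 10 (adjusted p 0.00925 to 0.184). At day 30, *Trib3* held in 17 of 22 (0.0193 to 0.206) and *Sesn2* in 21 (0.00921 to 0.102). At day 30, same-numbered mice correlated by 0.0456 to 0.181 (mean 0.114). The mean for other numbers, -0.0575, follows from that value, because deviations within a group cancel out. The numbers were not taken as pairs in the main fit, and what same-numbered mice share was not tested. The replicate block called 3 members at day 30, adding *Ddit3* (adjusted p = 0.0501), and over both days 4, adding *Chac1* (0.0277). It also called more genes at large, 3265 of 10593 at day 30 and 4909 over both days, against 2619 and 4304 without it. At day 25 the block added *Chac1* (0.0738), and among the members it changed no other call. Between days, numbers did not pair mice. Counting error limits *Atf3*, *Psat1*, *Phgdh* and the *Fgf21* values of day 30. The cause of these shifts was not tested.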

Other observations

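Relatives of the members were also measured. *Sesn3*, another sestrin, fell by 0.43 ± 0.11 on the log2 scale over both days (adjusted p = 0.0111), against the rise of *Sesn2*. *Sesn1* had a log2 fold change of 0.06 ± 0.11 (adjusted p = 0.690). *Trib1*, a relative of *Trib3*, had a log2 fold change of 0.04 ± 0.12 (adjusted p = 0.842) and *Chac2* of 0.07 ± 0.11 (adjusted p = 0.659). *Sesn1*, *Trib1* and *Chac2* are named here after their values were seen. While the serine synthesis genes were near 0, *Sds*, which encodes serine dehydratase and breaks serine down, rose by 1.08 ± 0.19 (adjusted p = 0.00113), from means of 204 and 145 FPKM in Con to 384 and 326 FPKM in CR mice. Of the 3 tested genes of its list, for serine breakdown and glycine exchange, only *Sds* was called. The list median over both days was 0.01.

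Among tested genes outside the members, those whose log2(FPKM + 1) followed *Atf4* most closely over the 12 livers were *Mir5116* (Pearson r = 0.86), *Kctd5* (0.85) and *Arrdc1* (0.85). All of these were lowest in Con replicate 3 of day 25, the mouse with the lowest *Atf4*, at 0, 1.24 and 0.564 FPKM. The genes most like *Trib3* were *Pik3c3* (0.94), *Nlrc5* (0.93) and *Tnfrsf1a* (0.93). For *Asns*, looked up after its spread was seen, they were *Det1* (0.87), *Dffa* (0.85) and *Acat1* (0.85). These are the highest of 10593 values and are given as a description.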
